A study of Mus musculus with 12 samples.

Results

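The enzymes that start O-glycans and lengthen their galactose-containing chains were followed in mouse skin samples taken without wounding and at set times after it. The rule uses gene symbols and no measured value, although the set was chosen with earlier results of these data known. It holds every symbol beginning with Galnt, C1galt1, Gcnt, B3gnt, B3galt, B4galt or B3galnt, with Ggta1, Abo and B4galnt2 added. It leaves out 7 transferases whose known products are glycolipids or the linker of glycosaminoglycans, namely B4galt5, B4galt6, B4galt7, B3galt4, B3galt6, B3galnt1 and B4galnt1. The set came to 42 genes on 45 probe sets, of 909 named genes and 1246 probe sets in the table. By role there were 19 initiating enzymes, 5 genes of core synthesis, 11 of chain extension and branching, and 7 of chain termini and other galactose or GalNAc steps. A gene with more than 1 probe set (Gcnt1, Gcnt3 and B3galt1) is represented by its brightest probe set.

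The 12 samples, each read as log2 values on a single-colour Affymetrix array, were taken without a wound (4 samples), at 0 h (1 sample), 30 min (2 samples), 2 h (4 samples) and 4 h (1 sample) after one. The series asks which genes of keratinocytes, the main cells of the epidermis, respond early to a wound. All titles carry the prefix B6, which the labels do not explain, and no source used here gives the sex or age of the mice, the type of wound or how many mice stand behind a sample. RNA of whole epidermis was planned in the design text, but the labels call every sample dendritic epidermal T cells (DETC), the gamma-delta T cells that live in mouse epidermis. Without a wound, Lgals7, a galectin of keratinocytes, was at 12.08 ± 0.27 and the Langerhans cell lectin Cd207 at 7.86 ± 0.63 on the log2 scale (SD, n = 4). Of 10 listed T cell markers 5 had a named probe set, all of them surface proteins of T and NK cells, and Cd3e, Cd3g, Cd8a and Trdc were not among them. Without a wound Klrk1 was at 2.38 ± 0.12, Klrd1 at 5.38 ± 0.38, Il2rb at 5.09 ± 0.29, Itgae at 5.32 ± 0.11 and Cd69 at 2.47 ± 0.17 (log2, SD, n = 4). Levels of different probe sets cannot be ranked on this scale, and the label could not be checked on the T cell receptor and CD3 genes. The material is therefore called the samples here, and neither label is taken over. If the RNA came from several cell types, fewer cells of a type and less RNA per cell cannot be told apart.

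Mucin-type O-glycosylation begins in the Golgi, where polypeptide GalNAc-transferases (the Galnt family) place N-acetylgalactosamine on a serine or threonine of a protein. T-synthase (C1galt1) adds galactose to make the core 1 structure, for which it needs its chaperone Cosmc (C1galt1c1), and Gcnt1 branches this to core 2. B4galt and B3gnt enzymes then alternate galactose and N-acetylglucosamine into poly-N-acetyllactosamine chains, whose galactose ends are the ligands of galectins and can be capped by enzymes such as Ggta1.

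Before any comparison of conditions, the 5 samples that the titles number 1, one in every group, stood apart. Over the 42 genes their values had an SD of 1.28 to 1.51 within a sample, against 1.92 to 2.05 in the 7 samples numbered 2 to 4. The narrower spread was not particular to these genes: over all 1246 probe sets the SD was 1.55 to 1.85 against 2.19 to 2.30. The 0 h and 4 h groups consist of such a sample alone, the 30 min group holds 1 of each kind, and the 2 h and non-wounded groups hold 1 and 3. Values within the samples numbered 2 to 4 are therefore given beside many of the results that they move, but not beside all.

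None of the 42 genes passed the test at 2 h against non-wounded or at 30 min against non-wounded (limma across all 1246 probe sets, Benjamini-Hochberg adjusted p threshold 0.05). Among all probe sets, 0.241% passed at 2 h and 0.0% at 30 min. The lowest adjusted p among the 42 genes was 0.835 at 2 h (Galnt11) and 0.735 at 30 min. Without adjustment, p was under 0.05 for 1 of the 42 genes at 2 h (Galnt11) and for 2 at 30 min (Galnt18 and Galnt6), against 4.65% and 5.06% of all probe sets. With the replicate number as a block, 0 of the 42 genes passed in either comparison, against 1.36% of all probe sets at 2 h and 0.0% at 30 min. In the blocked fit the lowest adjusted p among the 42 genes was 0.104 at 2 h (B3gnt2) and 0.432 at 30 min, and an unadjusted p under 0.05 was seen for 7 and 3 of the 42 genes, against 13.8% and 10.9% of all probe sets.

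At 2 h, 25 of the 42 genes (59.5%) were above the non-wounded mean and 17 below, against 54.5% above among all probe sets, but after scaling all samples to a common median and SD the split was 17 above and 25 below. The median log2 difference of the 42 genes at 2 h was 0.047, against 0.025 over all probe sets. At 30 min, 19 genes (45.2%) were above and 23 below, against 53.8% above among all probe sets, with a median of -0.036 against 0.038 over all probe sets. After the same scaling the 30 min split was 11 above and 31 below, with a median of -0.24 against -0.088 over all probe sets. Within the samples numbered 2 to 4 the 30 min split was 21 above and 21 below, with a median of 0.0 against -0.011. Over all samples, the 2 h and 30 min differences share the same 4 non-wounded samples.

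The intervals limit how large a missed difference could be. At 2 h the 95% interval of the log2 difference lay within 1 on either side of 0 for 29 of the 42 genes, and with the replicate block for 41, all except Galnt1. The same held for 68.2% of all probe sets, and for 88.8% with the block. At 30 min the interval did so for 22 genes, and for 34 with the block, against 48.3% and 74.8% of all probe sets. The median half-width for the 42 genes without the block was 0.616 at 2 h and 0.754 at 30 min.

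**Figure D1:**
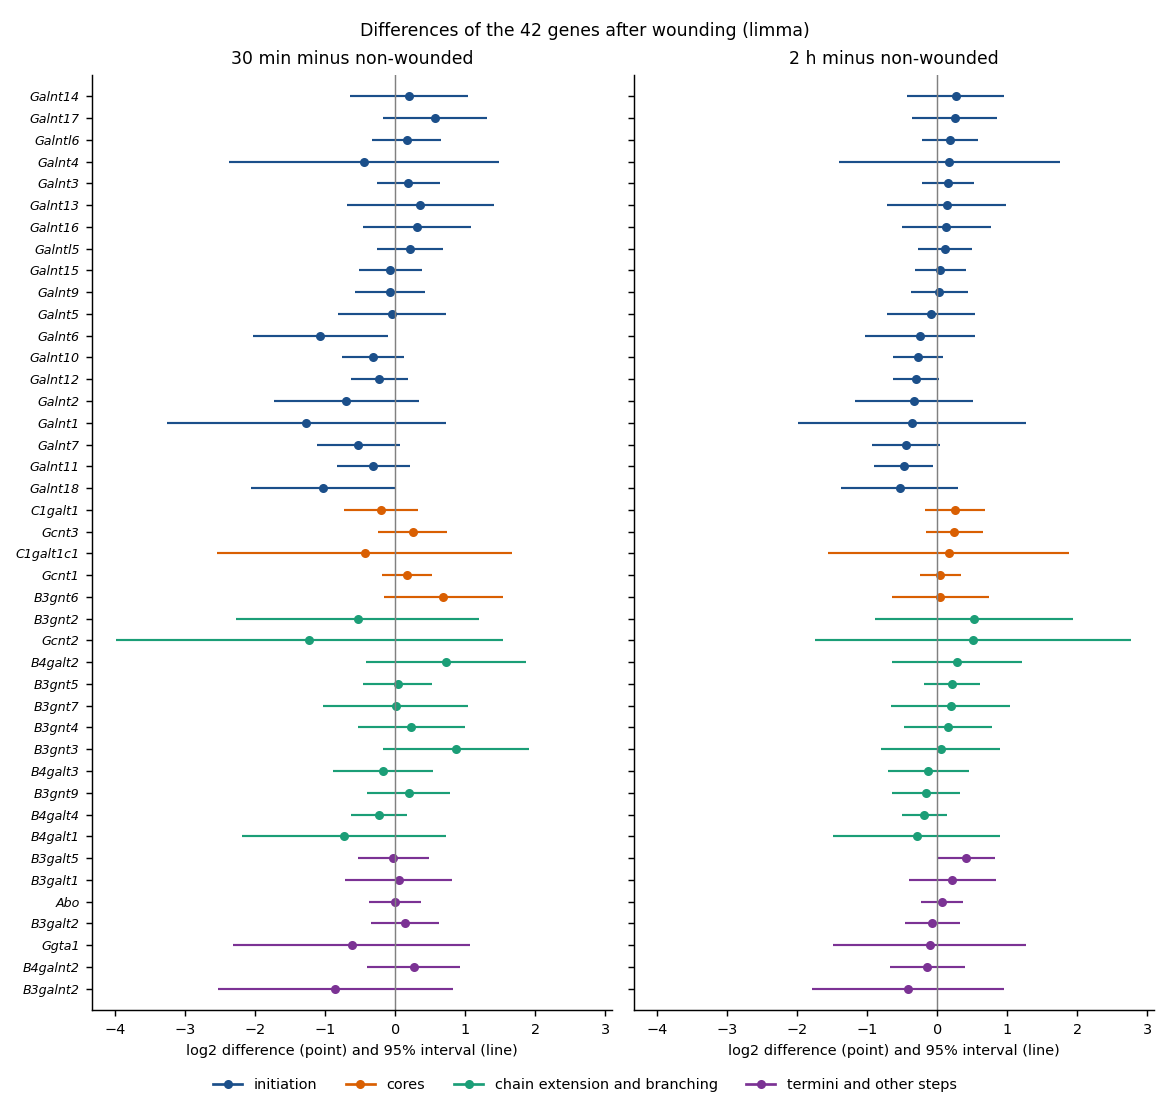
Each point is the log2 difference of 1 gene from the non-wounded samples at 30 min (left) and at 2 h (right), and each line its 95% interval from limma, coloured by role and ordered within a role by the difference at 2 h. The points run from -0.53 to 0.53 at 2 h and from -1.27 to 0.87 at 30 min, and no gene passed the adjusted threshold.

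Of the 19 initiating enzymes, 10 were above and 9 below the non-wounded mean at 2 h, with a median log2 difference of 0.029 (6 above and 13 below after scaling all samples to a common median and SD), and 7 were above and 12 below at 30 min, with a median of -0.070. After that scaling 4 were above and 15 below at 30 min, with a median of -0.32 against -0.088 over all probe sets. Within the samples numbered 2 to 4 the 30 min split was 10 above and 9 below, with a median of 0.002. Galnt11, known in mouse kidney for glycosylating the endocytic receptor megalin, had log2 values of 4.85, 5.31, 5.34 and 4.87 in the 2 h samples numbered 1 to 4, against 5.51, 5.36, 5.58 and 5.83 in the non-wounded samples numbered 1 to 4. All 4 values at 2 h lay below all 4 without a wound. Galnt11 averaged 5.09 ± 0.27 at 2 h and 5.57 ± 0.20 in non-wounded samples (SD, n = 4 each), a log2 difference of -0.48 ± 0.19 SE (95% interval -0.90 to -0.05, limma adjusted p = 0.835, and 0.282 with the replicate block). The 30 min samples were at 5.09 and 5.43, and the lower of these lay below the non-wounded range.

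Galnt12, mutated in some human colon tumours, was at a log2 difference of -0.30 (limma adjusted p = 0.998) and was the other gene of the 42 whose 2 h and non-wounded values did not overlap, with 3.73 to 3.94 at 2 h against 3.99 to 4.32 without a wound. Those 2 genes are 4.76% of the set, against 2.73% of all probe sets with 2 h values wholly below the non-wounded ones. None of the 42 genes had 2 h values wholly above the non-wounded ones, against 2.01% of all probe sets.

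Galnt7, which prefers peptides that already carry a GalNAc, was at 4.57, 5.14, 4.95 and 5.23 at 2 h and at 5.13, 5.42, 5.53 and 5.59 in the non-wounded samples. Each 2 h value was below the non-wounded value of the same number, and the groups overlapped only through the non-wounded sample numbered 1. Its log2 difference was -0.44 ± 0.22 SE (95% interval -0.92 to 0.04, limma adjusted p = 0.998, and 0.170 with the block). The 30 min samples were at 4.57 and 5.22, a log2 difference of -0.52 ± 0.26 SE (limma adjusted p = 0.735). Within the samples numbered 2 to 4 the 30 min difference of Galnt7 was -0.30, and leaving out 1 sample at a time gave -0.85 to -0.20.

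Galnt18 was at 5.57, 6.66, 6.89 and 6.78 at 2 h and at 6.52, 6.95, 7.37 and 7.20 without a wound. Here too every 2 h value was below the non-wounded value of its number, while the groups overlapped. The log2 difference of Galnt18 at 2 h was -0.53 ± 0.37 SE, the lowest of the 42 genes (limma adjusted p = 0.998, and 0.186 with the block). Its 30 min values were 5.33 and 6.63, a log2 difference of -1.03 ± 0.46 SE (95% interval -2.05 to -0.01, limma adjusted p = 0.735), and of -0.54 between the samples numbered 2 to 4 alone.

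Galnt6, known in human breast tissue and its tumours, where it glycosylates fibronectin, was at 7.12, 6.88, 6.63 and 6.77 at 2 h, inside the non-wounded range of 6.42 to 7.56. At 30 min the 2 samples were far apart, at 5.23 and 6.81, and the one numbered 1 was the lowest of all 12 samples. The log2 difference at 30 min was -1.07 ± 0.43 SE (95% interval -2.04 to -0.11, limma adjusted p = 0.735), and -0.26 within the samples numbered 2 to 4. Without the 30 min sample numbered 2, Galnt6 passed (log2 -1.86, limma adjusted p = 0.0400), and so did the chain-extending B3gnt3 and the core 3 enzyme B3gnt6, both higher. That fit called 5.94% of all probe sets and rests on the single 30 min sample numbered 1.

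The broadly active Galnt1 and Galnt2 were below the non-wounded mean at both times, with log2 differences of -0.36 ± 0.72 SE and -0.33 ± 0.38 SE at 2 h. Galnt10, a relative of Galnt7 that also acts on peptides already glycosylated, was at 4.04 and 4.22 at 30 min, both below the non-wounded range of 4.23 to 4.60. It was the only gene of the 42 whose 30 min values lay wholly below, 2.38% of the set against 5.14% of all probe sets. Galnt3, which protects the hormone Fgf23 from cleavage, ranged from 2.37 to 3.07 over all 12 samples. Galnt13, which is active mainly in the nervous system, ranged from 2.05 to 3.75, and its 5 highest values were those of the samples numbered 1. The remaining initiating enzymes had 2 h differences between -0.09 and 0.26 on the log2 scale. Of the 19 genes 5 had a mean below the 25th percentile of all probe sets, a log2 value of 3.20, and RMA gives no detection call to tell such values from background.

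**Figure D2:**
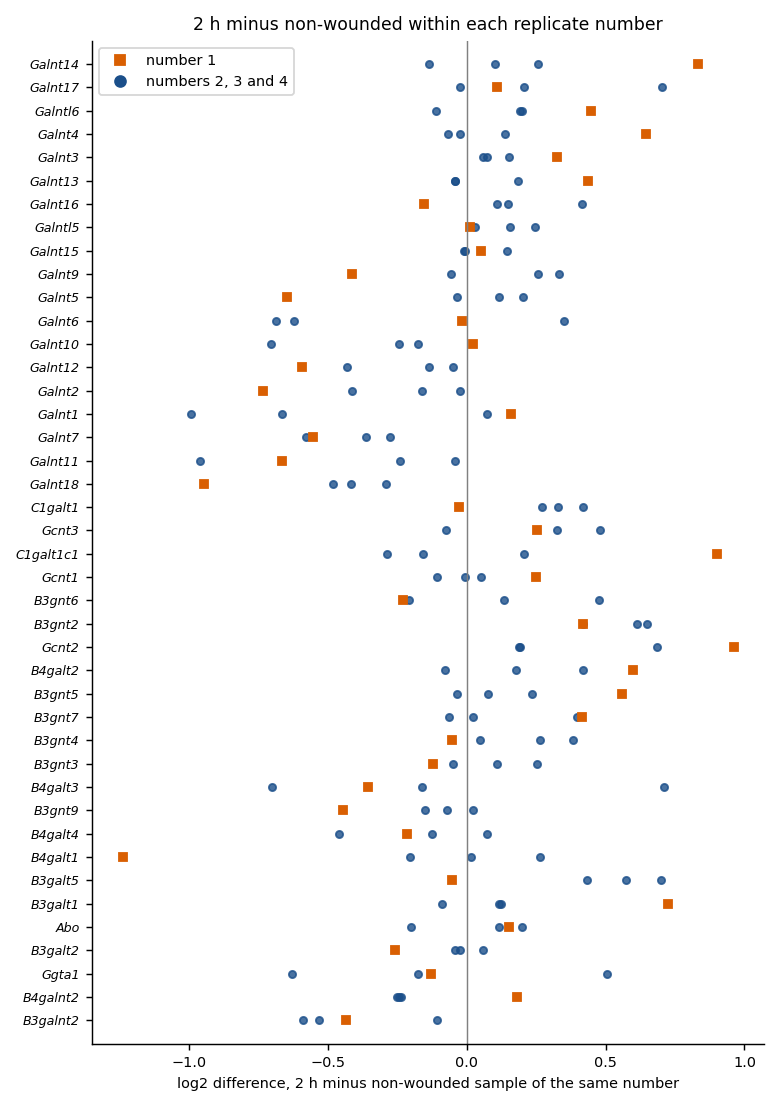
Each point is the 2 h value minus the non-wounded value of the same replicate number for 1 gene on the log2 scale, with squares for number 1 and circles for numbers 2, 3 and 4. All 4 points lie left of 0 for 6 genes (Galnt2, Galnt7, Galnt11, Galnt12, Galnt18 and B3galnt2) and right of 0 for 4 (Galnt3, Galntl5, Gcnt2 and B3gnt2).

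The count of genes with every same-numbered pair in 1 direction, as in the plot of differences within replicate numbers, was 6 of 42 lower (14.3%, against 11.6% of all probe sets) and 4 of 42 higher (9.52%, against 13.4%). Neither share stood far from that of the whole table. No label says that samples of the same number form a pair. Without number 1, deviations of same-numbered 2 h and non-wounded samples from their group means correlated at -0.150, 0.0727 and -0.319.

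All 5 genes of core synthesis were above the non-wounded mean at 2 h, with a median log2 difference of 0.16 against 0.025 over all probe sets, but after scaling all samples to a common median and SD only 3 of 5 were, and none passed. Within the samples numbered 2 to 4 the split of these genes at 2 h was 3 above and 2 below. C1galt1, the T-synthase, was at 3.95, 4.61, 4.49 and 4.40 at 2 h and at 3.98, 4.19, 4.22 and 4.07 in the non-wounded samples. The 3 samples at 2 h numbered 2 to 4 lay above all non-wounded samples, and the one numbered 1 lay below them. C1galt1 averaged 4.36 ± 0.29 at 2 h and 4.11 ± 0.11 without a wound (SD, n = 4 each), a log2 difference of 0.25 ± 0.19 SE (95% interval -0.18 to 0.68, limma adjusted p = 0.998, and 0.482 with the block). Both 30 min values, 3.67 and 4.16, lay below the 2 h values of samples numbered 2 to 4.

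C1galt1c1 encodes Cosmc, without which T-synthase is not folded. Its values at 2 h were 6.15, 8.11, 7.93 and 7.47, against 5.25, 7.91, 8.09 and 7.75 in non-wounded samples. The groups overlapped, and in both the sample numbered 1 was lowest by more than 1 on the log2 scale. Its difference at 2 h was 0.16 ± 0.77 SE (limma adjusted p = 0.998), and it had the opposite sign, -0.08, within the samples numbered 2 to 4. The sample numbered 1 was also the lower one at 30 min, with 5.53 against 8.10.

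Gcnt1, the core 2 branching enzyme, had a narrow range of 2.90 to 3.18 over all 12 samples on its brighter probe set and of 2.64 to 3.46 on the other. Its 30 min values of 3.18 and 3.17 were both above the non-wounded values of 2.90, 3.09, 3.01 and 3.06, a log2 difference of 0.17 ± 0.16 SE (limma adjusted p = 0.756). It was the only gene of the 42 whose 30 min values lay wholly above, 2.38% of the set against 2.49% of all probe sets. On its other probe set the 30 min values of 3.11 and 2.84 overlapped the non-wounded ones, which reached 2.94, and both probe sets had a mean below the 25th percentile of all probe sets. At 2 h its values were 3.15, 2.98, 3.06 and 3.05, a log2 difference of 0.05 ± 0.13 SE. Gcnt3, which makes core 2 and core 4 branches, ranged from 2.27 to 3.01, and B3gnt6 from 3.25 to 4.93.

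Among the 11 genes of chain extension and branching, 7 were above and 4 below the non-wounded mean at 2 h, with a median log2 difference of 0.16 against 0.025 over all probe sets, but after scaling all samples to a common median and SD the split was 6 and 5. B3gnt2, the main synthase of poly-N-acetyllactosamine, was at 5.67, 7.43, 7.98 and 7.74 at 2 h, against 5.25, 7.01, 7.37 and 7.09 in non-wounded samples. Each 2 h value was above the non-wounded value of its number, by 0.42 for numbers 1 and 2, and the groups overlapped because the samples numbered 1 were low in both. B3gnt2 was 1.44-fold higher in the 2 h mean, a log2 difference of 0.53 ± 0.63 SE (95% interval -0.89 to 1.94, limma adjusted p = 0.998). With the replicate block the interval was 0.24 to 0.81 and the adjusted p 0.104, so it missed the threshold there too. Leaving out 1 sample at a time gave 2 h differences of 0.049, without the non-wounded sample numbered 1, to 1.04, without the 2 h sample numbered 1. In the 30 min samples it was at 5.34 and 6.95, a log2 difference of -0.54 without the block and of 0.07 with it.

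Gcnt2, which adds the branches of I blood group antigen to such chains, was at 5.58, 8.12, 8.12 and 8.30 at 2 h and at 4.62, 7.93, 7.93 and 7.61 without a wound. It too was higher at 2 h in each of the 4 pairs of the same number, by 0.96 for number 1 and 0.19 for number 2, while the groups overlapped. The log2 difference of Gcnt2 at 2 h was 0.51 ± 1.01 SE (95% interval -1.75 to 2.76, limma adjusted p = 0.998, and 0.284 with the block). At 30 min it was at 4.01 and 7.58, both below the non-wounded value of the same number, with a log2 difference of -1.22 ± 1.23 SE (limma adjusted p = 0.763).

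B4galt1, which adds galactose to N-acetylglucosamine and makes lactose in the mammary gland, was at 7.18, 9.19, 9.22 and 9.40 at 2 h and at 8.42, 9.39, 9.20 and 9.14 in non-wounded samples. Apart from the samples numbered 1, which were lowest in both groups, the values of the groups covered almost the same range. Its log2 difference at 2 h was -0.29 ± 0.53 SE (limma adjusted p = 0.998), and 0.02 within the samples numbered 2 to 4. The 30 min samples were at 7.51 and 9.10.

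B4galt2 forms the same bond as B4galt1 and is best known from brain. Its 2 h values were 6.15, 4.94, 4.98 and 4.98, against 5.55, 5.02, 4.80 and 4.56 without a wound. Its 30 min values were 6.55 and 4.86, so that the samples numbered 1 were high at both times while the others stayed inside the non-wounded range. B4galt2 averaged 5.26 ± 0.59 at 2 h and 4.98 ± 0.42 in non-wounded samples (SD, n = 4 each), a log2 difference of 0.28 ± 0.42 SE (95% interval -0.65 to 1.21, limma adjusted p = 0.998, and 0.572 with the block). Its log2 difference at 30 min was 0.72 ± 0.51 SE (95% interval -0.41 to 1.86, limma adjusted p = 0.737, and 0.489 with the block), and within the samples numbered 2 to 4 it was 0.07. Without the 2 h sample numbered 1 the difference at 2 h was -0.02, and without the 30 min sample numbered 1 the difference at 30 min was -0.12. Both of these fits kept the high non-wounded sample numbered 1. The 2 h difference of B4galt2 was 0.17 within the samples numbered 2 to 4 and 0.60 between those numbered 1.

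B3gnt3, which extends core 1 chains, was between 3.05 and 3.82 in 11 samples and at 5.19 in the 30 min sample numbered 1. B3gnt7, an enzyme of keratan sulfate chains, ranged from 3.63 to 5.27, and B3gnt5, which starts lacto-series glycolipids, from 3.02 to 3.73. B3gnt4 ranged from 4.05 to 5.13, B3gnt9 from 4.79 to 5.74, B4galt3 from 6.42 to 7.51 and B4galt4 from 3.05 to 3.81. The 2 h differences of these 7 genes ran from -0.18 to 0.21 on the log2 scale.

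**Figure D3:**
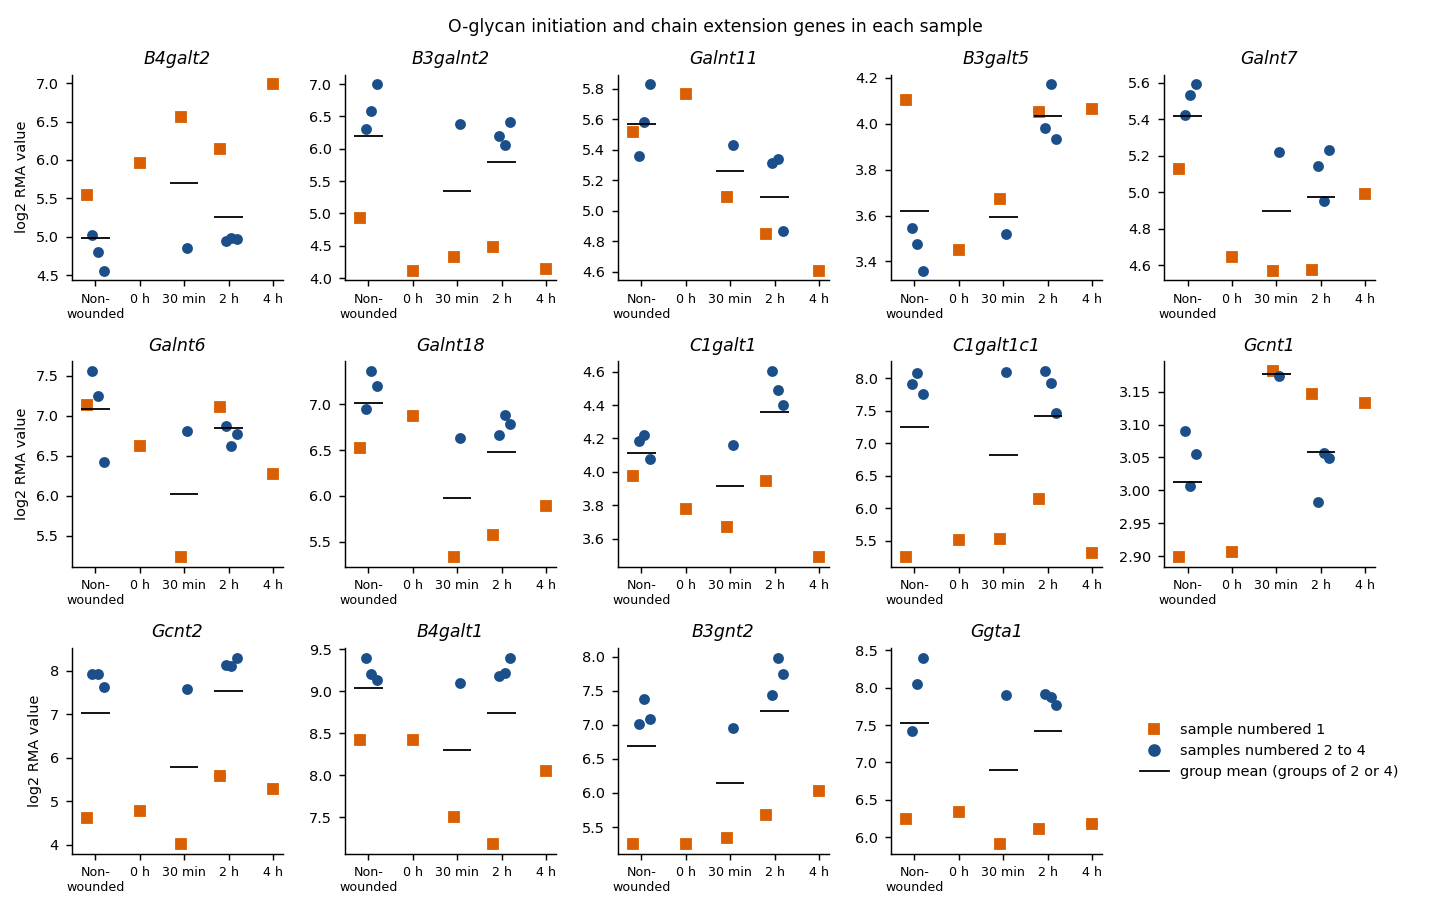
Each panel shows 1 gene, with its log2 value in every sample on the vertical axis and the groups in order of time on the horizontal axis. Squares are the samples numbered 1, circles those numbered 2 to 4, and bars the means of groups of 2 or 4 samples. For C1galt1, C1galt1c1, Gcnt2, B3gnt2, B4galt1, B3galnt2 and Ggta1 the squares lie below all circles, and for B4galt2 they lie above them.

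Of the 7 genes of termini and other steps, 3 were above and 4 below the non-wounded mean at 2 h, with a median of -0.07. B3galt5, which makes type 1 chains by adding galactose to N-acetylglucosamine, was at 4.05, 3.98, 4.17 and 3.93 at 2 h and at 4.10, 3.55, 3.48 and 3.36 without a wound. The 3 non-wounded samples numbered 2 to 4 lay below every 2 h sample, and the one numbered 1 lay among them. B3galt5 averaged 4.04 ± 0.11 at 2 h and 3.62 ± 0.33 in non-wounded samples (SD, n = 4 each), a 1.33-fold ratio with a log2 difference of 0.41 ± 0.19 SE (95% interval -0.0039 to 0.83, limma adjusted p = 0.998, and 0.284 with the block). Within the samples numbered 2 to 4 it passed, at log2 0.57 and adjusted p = 0.0367, as 1 of the 42 genes (2.38%) in a limma fit that called 3.05% of all probe sets. The 30 min values, 3.67 and 3.52, lay inside the non-wounded range.

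B3galnt2 places GalNAc on the O-mannose glycan of alpha-dystroglycan, which is not a mucin-type O-glycan. It was at 4.49, 6.20, 6.06 and 6.41 at 2 h and at 4.92, 6.30, 6.59 and 7.005 in non-wounded samples. Every 2 h value was below the non-wounded value of its number, by 0.44 for number 1 and 0.11 for number 2, while the groups overlapped. B3galnt2 averaged 5.79 ± 0.88 at 2 h and 6.20 ± 0.90 without a wound (SD, n = 4 each), a log2 difference of -0.42 ± 0.61 SE (95% interval -1.78 to 0.95, limma adjusted p = 0.998). With the replicate block the interval was -0.77 to -0.07 and the adjusted p 0.284. The 30 min samples were at 4.32 and 6.38, a log2 difference of -0.85 ± 0.75 SE (95% interval -2.53 to 0.82, limma adjusted p = 0.753, and 0.504 with the block). The difference was 0.02 at 2 h without the 2 h sample numbered 1, and 0.18 at 30 min without the 30 min sample numbered 1. Both of these fits kept the low non-wounded sample numbered 1. B3galnt2 differed by -0.41 at 2 h and -0.25 at 30 min within the samples numbered 2 to 4. Between the samples numbered 1 its 30 min difference was -0.60.

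Ggta1, which caps chains with the alpha-galactose epitope that mice make and humans lack, was at 6.11, 7.92, 7.87 and 7.77 at 2 h and at 6.24, 7.42, 8.05 and 8.40 in non-wounded samples. The groups overlapped, and its log2 difference at 2 h was -0.11 ± 0.62 SE (limma adjusted p = 0.998). At 30 min its values were 5.90 and 7.90. B4galnt2, which makes the Sda antigen, ranged from 3.09 to 4.21, Abo, whose mouse enzyme adds both galactose and GalNAc to H antigen, from 2.80 to 3.50, and B3galt1 from 2.35 to 3.64. B3galt2 ranged from 1.89 to 2.49.

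When the 2 h samples were set against the 30 min samples, 0 of the 42 genes passed with or without the block, against 0.0% of all probe sets in both fits. The lowest adjusted p among the 42 genes was 0.980, and 0.418 with the block (limma). Without adjustment, p was under 0.05 for 0 of the 42 genes and for 2.17% of all probe sets, and with the block for 5 genes (11.9%) and 5.38% of all probe sets. Gcnt2 differed by 1.73 ± 1.23 SE on the log2 scale (limma adjusted p = 0.980), and by 1.57 between the samples numbered 1 and 0.53 between those numbered 2. B3galt5 was the only gene whose 2 h values lay wholly above the 30 min values (2.38% of the set, against 3.77% of all probe sets), with a log2 difference of 0.44 ± 0.23 SE. Gcnt1 was the only one wholly below (2.38%, against 1.69%). Galnt6 differed by 0.83 ± 0.43 SE, and by -0.06 within the samples numbered 2 to 4, while C1galt1 differed by 0.45 ± 0.23 SE.

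The split between the samples numbered 1 and the others was seen in 25 of the 42 genes. In 9 of them (21.4%, against 17.6% of all probe sets) the 5 samples numbered 1 lay wholly below the other 7, and in 16 (38.1%, against 26.3%) wholly above. Gcnt2 averaged 4.85 in the samples numbered 1 and 7.94 in the others, C1galt1c1 5.55 and 7.91, Galnt1 4.39 and 6.52, Galnt4 4.60 and 6.70, and B3galnt2 4.40 and 6.42. In the other direction B4galt2 averaged 6.24 in the samples numbered 1 and 4.88 in the others, and Galnt13 averaged 3.23 and 2.12. No label says what the number stands for beyond a replicate. Those numbered 2 to 4 alone showed 6 of the 42 genes with 2 h values wholly above and 6 wholly below the non-wounded ones (14.3% each), against 14.7% and 10.4% of all probe sets. The 6 above were B3galt5, B3gnt2, B3gnt4, C1galt1, Galnt16 and Gcnt2, and the 6 below were B4galnt2, Galnt7, Galnt10, Galnt11, Galnt12 and Galnt18.

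**Figure D4:**
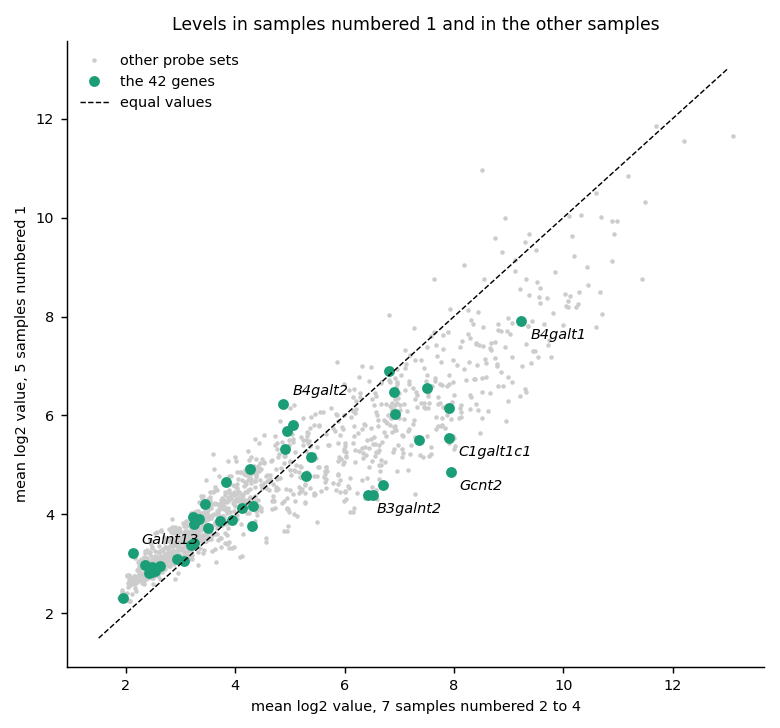
Each point is 1 probe set, with its mean log2 value over the 7 samples numbered 2 to 4 on the horizontal axis and over the 5 samples numbered 1 on the vertical axis, and the 42 genes are drawn larger. The dashed line marks equal values, with Gcnt2 3.09 below it and B4galt2 1.36 above it.

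The single samples at 0 h and 4 h, both numbered 1, have no replicate and no test. In the order non-wounded, 0 h, 30 min, 2 h and 4 h, the samples numbered 1 had B4galt2 at 5.55, 5.96, 6.55, 6.15 and 6.99. Its 4 h value was the highest of all 12 samples, 1.44 above the non-wounded sample numbered 1. B4galt2 was the only gene of the 42 that lay 1 or more above that sample at 4 h (2.38%, against 3.29% of all probe sets), and none lay 1 or more below it (against 8.51%). B3galnt2 was at 4.92, 4.11, 4.32, 4.49 and 4.14 in the same order, with each wounded sample below the non-wounded one. Galnt2 was 0.93 and Galnt11 0.91 lower at 4 h than in the non-wounded sample numbered 1.

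Neighbouring steps of the pathway were counted in lists of genes outside the 42. Of the 7 transferases left out of the set, 1 was above and 6 below the non-wounded mean at 2 h, with none past the test. The 1 above was B4galt5, a lactosylceramide synthase, with a log2 difference of 0.86 ± 0.19 SE (limma adjusted p = 0.160, and 0.0908 with the block). B4galt5 passed with the number as a random block (adjusted p = 0.0302, in a fit that called 1.2% of all probe sets) and within the samples numbered 2 to 4 (log2 0.74, adjusted p = 0.0392, where 3.05% of all probe sets passed). Of 9 sialyltransferases that cap O-glycans, 5 were above and 4 below, or 4 and 5 after scaling. Of 8 measured genes of sugar donor supply, 3 were above and 5 below, and Uap1, which makes UDP-N-acetylglucosamine, was at 1.11 ± 0.53 SE (adjusted p = 0.998, and 0.0448 with the block). Of 8 measured genes of O-mannose glycans and dystroglycan, 1 was above and 7 below with a median of -0.18, of 7 mucins 6 were above and 1 below, and of 8 galectins 4 were above and 4 below. In all these lists 0 genes passed at 2 h without the block, against 0.241% of all probe sets, and Uap1 alone passed with the fixed block, against 1.36%. Uap1 had an adjusted p of 0.0966 with the random block and of 0.0091 within the samples numbered 2 to 4 (limma).

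No marker gene of the 7 cell types listed passed at 2 h without the block, and Cd207 passed with it (log2 0.91, limma adjusted p = 0.0448), in the fit that called 1.36% of all probe sets. Cd207 did not pass with the random block (limma adjusted p = 0.115). It also missed the threshold within the samples numbered 2 to 4 (log2 1.02, limma adjusted p = 0.101). Cd83, a surface protein of mature antigen-presenting cells, was at a log2 difference of 1.5 (limma adjusted p = 0.354, 0.0900 with the block and 0.0104 within the samples numbered 2 to 4). For each cell type the linear levels of its markers were summed and the sum put on the log2 scale, so the brightest probe set weighs most. This summed level of 3 measured keratinocyte markers was 11.45 to 12.51 at 2 h and 12.12 to 12.59 in non-wounded samples. That of 5 T cell markers was 6.28 to 7.31 and 6.77 to 7.18, and that of 5 Langerhans and antigen-presenting markers 9.97 to 11.47 and 10.36 to 11.35. All 7 measured fibroblast markers were above the non-wounded mean at 2 h (summed level 6.84 to 7.09 at 2 h and 6.47 to 6.89 without a wound), and all 5 neutrophil markers were (8.82 to 10.51 and 8.39 to 10.35). All 3 endothelial markers were above it too, and all 3 keratinocyte markers below. Among all probe sets 54.5% were above. Within the samples numbered 2 to 4, 2 of the 3 keratinocyte markers were above, and so were all fibroblast, neutrophil and endothelial markers. After scaling all samples to a common median and SD, 5 of the 7 fibroblast, 4 of the 5 neutrophil, 3 of the 3 endothelial and 1 of the 3 keratinocyte markers were above. Their part in the values of the 42 genes was not tested.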

How the data were processed

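Total RNA was labelled with biotin and hybridised to Affymetrix arrays per the labels' protocols. The authors deposited log2 values of 1246 probe sets in 12 samples, made with RMA per the submitters' processing notes; no source used here names the array design, scan batches or filters, and RMA values carry no detection call or depth. Probe sets were named through RefSeq accessions (963 matched 1 symbol, 283 none). The 42 genes and all lists were chosen with earlier results of these data known. Titles gave the groups and replicate numbers. Nothing says that replicates are separate mice, and a p-value then covers only the spread among these samples, perhaps a technical one.

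Tests used limma 3.58.1 (R 4.3.3) on all 12 samples and 1246 probe sets, two-sided, with Benjamini-Hochberg adjustment over all probe sets and a threshold of 0.05. Values in every sample were given for B4galt2, B3galnt2, the 3 genes with the smallest p in each comparison and the defining enzyme of each step; genes outside that rule are given by range or count. Deviations of same-numbered 2 h and non-wounded samples from their group means correlated at 0.796, 0.449, 0.651 and 0.297 for numbers 1 to 4, all above 0.1, so the number was also fitted as a block; without number 1 the correlations were -0.150, 0.0727 and -0.319. The 2 h comparison was tested on simulated data with 200 of 1246 probe sets changed. Recovery was 60% for changes of 1 on the log2 scale and 88% for changes of 2. With the block it was 87% and 97%. Of the calls 0% were false without the block and 6.60% with it. These rates hold for that share of changed probe sets, and a smaller share or changes under 1 were not simulated. In the data 0.241% of all probe sets passed at 2 h without the block, and 1.36% with it. The 2 h differences in the gene set ran from -0.53 to 0.53 on the log2 scale. The rates therefore do not say how often such differences would be found. Alternatives were other normalizations, filters, weights, thresholds and sample sets. Sequences of the genes were not used here.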

Additional observations from a re-analysis of the deposited data

Results flagged for a closer look

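In groups of 4 samples, the gap from the lowest or highest sample to its nearest neighbour was divided by the range of the group and set against Dixon's 95% critical value for 4 samples. Over the 14 genes given in every sample, 28 groups were examined and 7 exceeded that value. A single group exceeds it by chance about 1 time in 20. The 28 groups are the same samples read through different genes and are not independent, so their count cannot be tested against that rate. All 7 concerned a sample numbered 1. At 2 h the shares were 0.969 for B4galt2 (log2 value 6.15, above the others), 0.933 for Gcnt2 (5.58, below the others), 0.904 for B4galt1 (7.18, below) and 0.918 for Ggta1 (6.11, below). In the non-wounded samples they were 0.883 for C1galt1c1 (5.25, below), 0.904 for Gcnt2 (4.62, below) and 0.831 for B3gnt2 (5.25, below).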

How the results depend on the processing

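Of the values recomputed, 689 kept their sign and their side of the threshold (or moved by less than the spread between replicates), 44 changed sign, 6 passed the threshold that they had missed and 13 counts or medians moved; the cause was not tested. No gene of the 42 passed at 2 h except 1 in the samples numbered 2 to 4 (B3galt5) and 4 with array weights (B3galt5 and C1galt1 higher, Galnt7 and Galnt18 lower, where 10.4% of all probe sets passed). The replicate block took the probe sets called at 2 h to 17, against 3 without it, and the genes of the set called stayed at 0. With the block the 30 min differences of C1galt1c1 (0.041) and B3gnt2 (0.065) turned positive.

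In the samples numbered 2 to 4 the 2 h differences were -0.081 for C1galt1c1, -0.021 for Gcnt1 and 0.023 for B4galt1. The 30 min differences there were 0.060 for B3galt5 and 0.18 for C1galt1c1, and Galnt6 at 2 h against 30 min was at -0.056. With array weights the 2 h values were -0.078, -0.0027 and 0.019 for the same 3 genes, and B3galt5 at 30 min was at 0.12. Quantile normalization gave Gcnt1 -0.062 at 2 h and -0.058 at 30 min, Ggta1 0.11 at 2 h and C1galt1c1 0.019 at 30 min. Median centring gave Gcnt1 -0.038 at 2 h. Scaling to one median and SD gave Gcnt1 -0.082 at 2 h, also with the block, and -0.099 at 30 min. That scaling with the block, chosen after seeing the data, gave C1galt1c1 0.14, B3gnt2 0.14 and Ggta1 0.035 at 30 min.

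The median difference of the 42 genes was -0.064 at 2 h with that scaling, with or without the block. The scaling placed the median of all probe sets at 30 min at -0.088, against 0.038 without it. The median of the 42 genes at 30 min was -0.24 with the scaling, -0.13 with median centring, -0.21 without dim probe sets and 0.066 with array weights. At 2 h against 30 min it was 0.16 with the scaling and -0.039 with array weights.

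Leaving out 1 sample at a time, the median difference of the 42 genes at 30 min ranged from -0.12 to 0.060. At 2 h the differences ranged from -0.018 to 0.47 for B4galt2, -0.84 to 0.018 for B3galnt2, -0.50 to 0.59 for C1galt1c1, -0.29 to 1.16 for Gcnt2, -0.51 to 0.23 for B4galt1, -0.54 to 0.33 for Ggta1, 0.049 to 1.04 for B3gnt2, 0.17 to 0.39 for C1galt1, 0.0082 to 0.072 for Gcnt1, -0.70 to -0.23 for Galnt18 and -0.47 to -0.087 for Galnt6. At 30 min they ranged from -0.12 to 1.57 for B4galt2, -1.88 to 0.18 for B3galnt2, -0.45 to 0.044 for C1galt1, -1.72 to 0.85 for C1galt1c1, -3.01 to 0.56 for Gcnt2, -1.53 to 0.062 for B4galt1, -1.34 to 0.27 for B3gnt2, -1.62 to 0.38 for Ggta1, -0.11 to 0.13 for B3galt5, -1.86 to -0.28 for Galnt6, -0.85 to -0.20 for Galnt7, -0.48 to -0.14 for Galnt11 and -1.68 to -0.38 for Galnt18. At 2 h against 30 min Gcnt2 ranged from -0.056 to 3.52, Galnt6 from 0.034 to 1.62 and C1galt1 from 0.20 to 0.69. A fit without 1 sample numbered 1 keeps such a sample only in the other group compared. Fits with 1 sample left at 30 min assume that it varies like the other groups.

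The number of arrays limits the precision, and no signal over background is known for these RMA values. Of the 42 genes 10 had a mean under the 25th percentile of all probe sets and 7 were measured by a probe set of a kind (s_at or x_at) that can match other transcripts, B3gnt2 among them.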
